A study of Mus musculus with 9 samples.

Results

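The genes described here encode the proteins of the mitochondrial ribosome, and were taken by symbol: every gene named Mrpl or Mrps followed by a digit, with pseudogenes left out. This gave 78 of the 57010 genes in the deposited table. All 78 were among the 13686 genes that passed the filter on low counts, and 6 pseudogene entries were set aside. RNA came from liver of male BALB/c mice in 3 groups of 3 libraries. CON mice had no treatment. CPT and AT3 mice share one treatment label, acute liver injury caused by cisplatin, a platinum anticancer drug. The agent in the title of the series is atractylenolide III, a sesquiterpene lactone from plants, but no label spells out AT3 or gives a dose, route, time or age. Nothing in the labels ties each library to a mouse of its own. A p-value here thus reflects how far libraries of a group differ, which may be technical.

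The mitochondrial ribosome translates the few proteins encoded by mitochondrial DNA, all of them subunits of the oxidative phosphorylation complexes. Its ribosomal RNAs are made inside the organelle, while its proteins are encoded in the nucleus, made in the cytosol and imported. Some of these proteins descend from bacterial ribosomal proteins and others were gained during the evolution of mitochondria. Liver is rich in mitochondria, and hepatocytes depend on them for urea synthesis, fatty acid oxidation and gluconeogenesis.

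Of the 78 genes, 51 encode proteins of the large subunit, of which 30 were classed with bacterial homologues and 21 as mitochondria-specific. Another 26 encode small subunit proteins, 16 classed with bacterial homologues and 10 as mitochondria-specific. Mrps18a and Mrps18b were counted as mitochondria-specific, although they descend from the same bacterial protein as Mrps18c. The large subunit counts include Mrps30 and Mrps18a, whose proteins sit in the large subunit in spite of their names. Mrps36 carries the family name but encodes a component of the 2-oxoglutarate dehydrogenase complex. All 78 were found in the GENCODE annotation of GRCm38.

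Promoters of this family are known for sites of ETS family factors such as GABP, of NRF1 and of YY1. RefSeq windows from 250 bases before to 50 after a gene's start (GRCm38.p6) were found for 69 of the 78 genes, as 75 windows, and were searched on both strands. The ETS motif CCGGAAG lay in 34.7% of these windows, against 8.86% of all windows and 17.1% of the windows of tested genes. For the NRF1 motif GCGCANGCG the shares were 21.3%, 6.25% and 12.7%. The YY1 motif AAGATGGC was found in 16.0% of the family's windows, 2.75% of all windows and 4.36% of those of tested genes. No matches of the 3 motifs overlapped in the family's windows, and 44 of the 69 genes held at least 1. Of the windows of tested genes, 29.8% held at least 1. The stretches below are upstream pieces outside annotated exons in 3 genes with an ETS match, shown as examples of such matches, with the match in capitals and each written 5′ to 3′ on the gene's strand. Mrpl43 (chr19:45006443-45006557, minus strand) has 2 matches, while Mrpl34 (chr8:71464806-71464925, plus strand) and Mrpl58 (chr11:115403632-115403751, plus strand) have 1 each.
Mrpl43: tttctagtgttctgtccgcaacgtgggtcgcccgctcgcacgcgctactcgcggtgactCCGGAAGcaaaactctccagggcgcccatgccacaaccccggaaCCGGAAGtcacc
Mrpl34: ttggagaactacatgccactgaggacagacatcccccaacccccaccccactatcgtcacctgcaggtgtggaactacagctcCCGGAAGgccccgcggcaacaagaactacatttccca
Mrpl58: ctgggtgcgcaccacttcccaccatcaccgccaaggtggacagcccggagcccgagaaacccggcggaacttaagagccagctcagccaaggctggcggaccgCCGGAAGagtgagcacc

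Libraries held 21485021 to 28480479 estimated counts. Levels are given below as CPM, counts divided by a library size that TMM, a method that sets the bulk of genes equal between libraries, has adjusted, and brought to a common total. The CON libraries had TMM factors of 0.726 to 0.963, the CPT libraries of 1.07 to 1.13 and the AT3 libraries of 1.05 to 1.13. Transcripts of the mitochondrial genome took 25.8% to 36.8% of counts in the CON libraries. In CPT the share was 11.2% to 16.3%, and in AT3 it was 9.79% to 11.4%. Changes also depend on the scale: TPM values are divided by gene length and brought to one total that includes these transcripts. The median of all tested genes for CPT against CON was -0.02 on the TMM scale and 0.29 on the log2(TPM + 1) scale. A direction that depends on this choice is marked as such.

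Most genes of the family were higher in cisplatin-injured than in untreated liver. In CPT against CON, 50 of the 78 were called higher and 8 lower by edgeR's quasi-likelihood test at an adjusted p below 0.05, and 20 were not called. Over all tested genes the same test called 60.8%, with 30.0% higher and 30.8% lower. The median log2 fold change of the 78 was 0.53, with quartiles of 0.12 and 0.93. On the log2(TPM + 1) scale 69 were called higher and 1 lower, where 48.5% and 11.7% of all tested genes were called, and 70 of the 78 lay above the median of all genes. Their median on that scale was 1.11, or 0.82 above that of all genes. In CPM, the 3 CPT libraries all lay above the 3 CON libraries for 53 genes and all below for 9, against 31.5% and 32.7% of all tested genes. In bulk tissue, fewer cells of a type and less RNA per cell cannot be told apart.

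**Figure D1:**
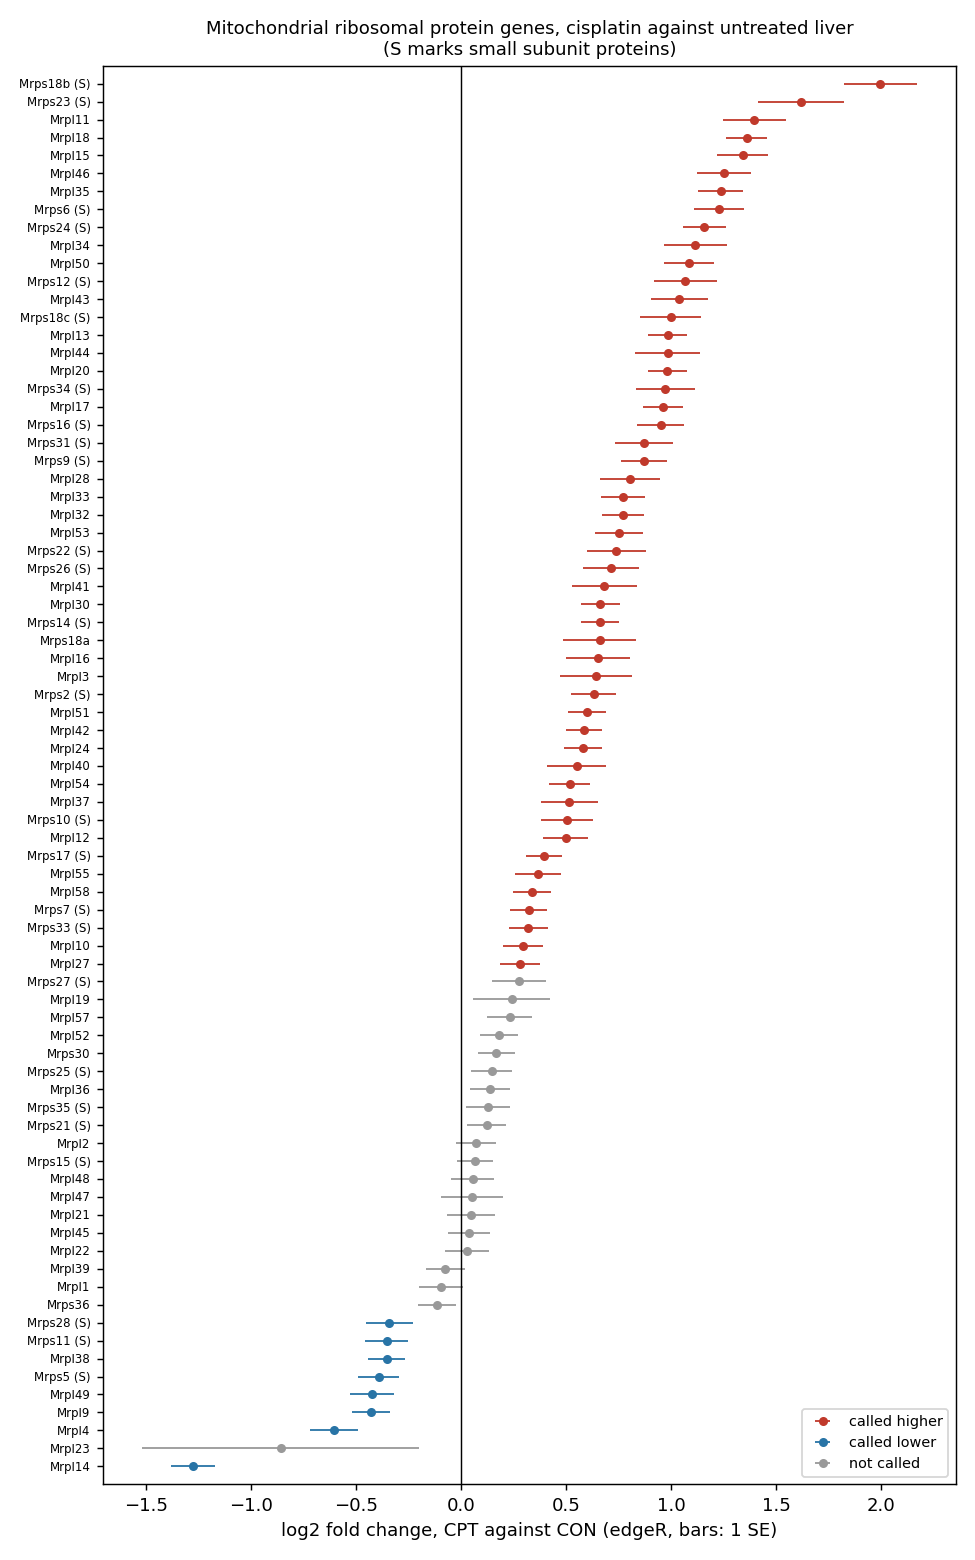
Log2 fold change of each of the 78 genes in CPT against CON (points, edgeR on TMM-scaled counts; bars, 1 SE), ordered by size and coloured by call, with S marking small subunit proteins. 50 genes were called higher and 8 lower; of the 8, all but Mrpl14 had a positive value on the log2(TPM + 1) scale, and Mrps5 was called higher there.

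The summed level of the 78 genes was 1801 to 1917 CPM in the CON libraries and 2386 to 2558 CPM in the CPT libraries. AT3 libraries lay at 2326 to 2475 CPM. All treated libraries were thus above all untreated ones, and CPT and AT3 overlapped. On the per-length TPM scale the CON sums were 1636 to 2308, the CPT sums 3574 to 4003 and the AT3 sums 3658 to 3982. The summed TPM of large subunit genes over that of small subunit genes gave a ratio of 1.90 to 2.03 for CON, with 1.94 to 1.97 for CPT and 1.99 to 2.01 for AT3. On this scale the ratios of the treated libraries all lay within the range of the CON libraries, and those of AT3 all lay above those of CPT. From CPM, the ratio was 2.12 to 2.24 for CON, 2.11 to 2.16 for CPT and 2.11 to 2.12 for AT3, so that the 3 AT3 libraries and CPT replicate 2 lay below CON.

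**Figure D2:**
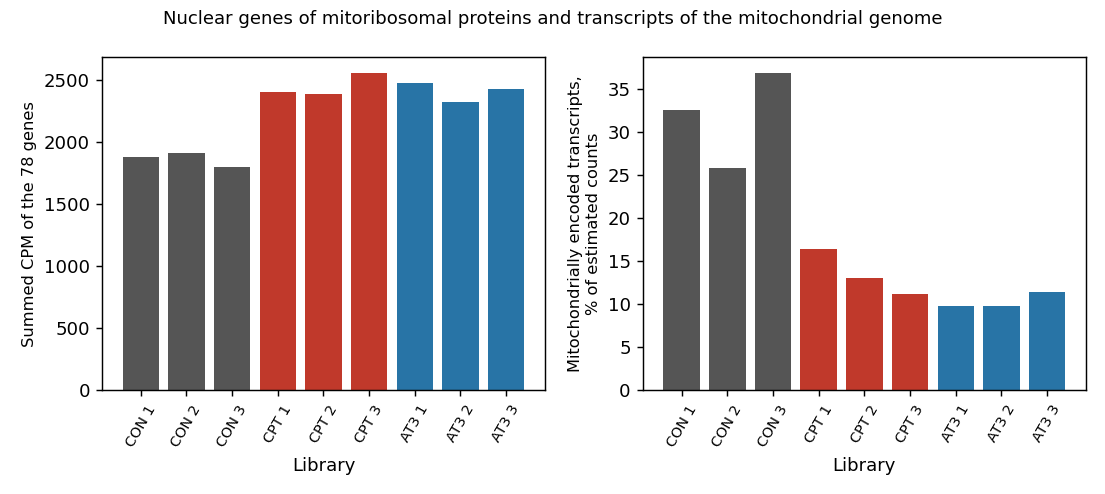
Left, summed CPM of the 78 nuclear genes in each library; right, share of estimated counts from the mitochondrial genome. The CON libraries have the lowest sums, 1801 to 1917 CPM, and the highest mitochondrial shares, 25.8% to 36.8%.

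Large subunit genes were called higher in 32 cases and lower in 5, with a median log2 fold change of 0.52. For the small subunit the counts were 18 and 3 of 26, with a median of 0.65. Split by class, 30 of 46 genes classed with bacterial homologues were called higher and 6 lower (median 0.54). In the mitochondria-specific class, which holds Mrps18a and Mrps18b, the counts were 20 and 2 of 31 (median 0.55). No small subunit gene of the mitochondria-specific class was called lower, and 7 of its 10 were called higher. Among all tested genes, 30.0% were called higher and 30.8% lower, or 48.5% and 11.7% on the log2(TPM + 1) scale. On that scale, large subunit genes were called higher in 44 cases and lower in 1, and small subunit genes in 24 and 0. The counts there were 39 and 1 for bacterial homologues and 29 and 0 for the mitochondria-specific class.

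The largest rise was that of Mrps18b, a small subunit gene counted here in the mitochondria-specific class. Its level was 13.6, 13.9 and 8.5 CPM in the CON libraries, 37.1, 48.9 and 58.2 CPM in CPT and 48.1, 45.4 and 48.4 CPM in AT3. Every treated library exceeded every untreated one. The log2 fold change for CPT against CON was 2.0 ± 0.17 (SE), with an edgeR adjusted p of 1.06e-07. Mrps18b is 1 of 3 paralogues descended from a single bacterial protein, and the other two rose less. Mrps18c, which occupies the position of the bacterial protein, rose by 1.0 ± 0.14 (adjusted p = 2.40e-05, edgeR). Mrps18a, in the large subunit, rose by 0.66 ± 0.17 (adjusted p = 0.00386, edgeR). The differences between the paralogues' changes were not tested.

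Among other small subunit genes, Mrps23 had 2.92, 3.22 and 3.04 CPM in CON, and 6.68, 8.69 and 13.0 CPM in CPT. Its CPT libraries spread widely but did not reach down to CON, and the log2 fold change was 1.62 ± 0.21 (edgeR adjusted p = 6.49e-06). Mrps6, the counterpart of a bacterial platform protein, had 5.45, 4.75 and 5.91 CPM in CON and 12.2, 12.3 and 13.0 CPM in CPT. Its groups were far apart relative to their spread, with a change of 1.23 ± 0.12. Mrps12, at the decoding centre where codon and tRNA are matched, rose by 1.07 ± 0.15. Mrps34 and Mrps22, both mutated in human mitochondrial disease, rose by 0.97 ± 0.14 and 0.74 ± 0.14.

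In the large subunit, Mrpl18 had the smallest adjusted p of the family, 1.29e-08 by edgeR. Mrpl18 belongs to the universal family that contacts the small structural RNA of the central protuberance. Its CPM were 12.3, 14.1 and 13.5 in CON and 33.1, 34.5 and 34.9 in CPT, with 41.4, 37.9 and 35.8 in AT3. The libraries of each group lay close together, and the log2 fold change for CPT against CON was 1.36 ± 0.10. Mrpl15, which belongs to the ribosomal core, rose by 1.34 ± 0.12 from 27.5, 35.1 and 27.4 CPM to 65.2, 77.1 and 86.2 CPM. Mrpl35, another bacterial homologue, rose by 1.24 ± 0.11 from 11.8, 10.7 and 9.51 CPM to 22.4, 26.2 and 26.8 CPM. For neither gene did a CPT library fall within the CON range.

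The stalk of the large subunit recruits translation factors, and its 3 genes, Mrpl10, Mrpl11 and Mrpl12, were all called higher. Mrpl11 had 13.5, 16.0 and 9.68 CPM in CON and 30.4, 34.0 and 39.6 CPM in CPT, a log2 fold change of 1.40 ± 0.15. Mrpl12, whose protein has also been described as a partner of the mitochondrial RNA polymerase, had 45.0, 45.6 and 44.9 CPM in CON and 55.2, 62.4 and 74.0 CPM in CPT. Its groups were separate but nearer together, and its change was 0.50 ± 0.11 (edgeR adjusted p = 0.000863). The change of Mrpl10 was 0.30 ± 0.10, and its call was lost without CON replicate 3 (0.26, adjusted p = 0.0535, edgeR).

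Of 6 genes listed for the central protuberance, at the top of the large subunit, 4 were called higher and 1 lower. Mrpl18 was not on this list. The shares of all tested genes were 30.0% higher and 30.8% lower, or 48.5% and 11.7% on the log2(TPM + 1) scale. On that scale 5 of the 6 were called higher and 0 lower. At the peptide exit site, where new membrane proteins leave the ribosome, edgeR called 3 of 8 higher and none lower, with a median log2 fold change of 0.05. Mrpl44, an exit-site protein related to ribonucleases and mutated in human cardiomyopathy, was among the 3, with a change of 0.98 ± 0.16. The others were Mrpl17 at 0.96 ± 0.09 and Mrpl24 at 0.58 ± 0.09. Mrpl22, Mrpl39, Mrpl45 and Mrpl47 lay between -0.07 and 0.05 and were not called, and Mrpl39 had a positive value on the TPM scale (0.51). On the log2(TPM + 1) scale 6 of the 8 exit-site genes were called higher and 0 lower, with a median of 0.59. Of 16 genes mutated in human mitochondrial disease, 12 were called higher and 2 lower (median 0.64), or 14 and 0 on the log2(TPM + 1) scale. Among them, Mrpl3, a core protein, rose by 0.64 ± 0.17.

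Other genes were read for their particular roles. Mrpl58 encodes a peptidyl-tRNA hydrolase that rescues stalled mitochondrial ribosomes and is also built into the large subunit. It had 28, 28.8 and 25.6 CPM in CON and 33.4, 33.5 and 37.3 CPM in CPT, and rose by 0.34 ± 0.09 (edgeR adjusted p = 0.00498). Mrpl41, a mitochondria-specific large subunit gene, rose by 0.68 ± 0.16. Mrps30 had 19.8, 19.0 and 19.4 CPM in CON, and 22.1, 22.4 and 20.9 CPM in CPT. The groups did not overlap, but the edgeR adjusted p was 0.113 at a change of 0.17 ± 0.09. Mrps36, the dehydrogenase component, was not called at -0.11 ± 0.09, a direction that turned to 0.55 on the log2(TPM + 1) scale.

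Mrpl14 had the largest fall of the genes called lower. Its protein lies on the face of the large subunit that meets the small subunit, and its gene spans chr17:45686322-45698495 on the plus strand (GRCm38). CON libraries had 134, 124 and 127 CPM, CPT libraries 59.6, 49.8 and 49.3 CPM and AT3 libraries 42.9, 36.6 and 44.0 CPM. No treated library came near an untreated one. The log2 fold change for CPT against CON was -1.28 ± 0.10 (edgeR adjusted p = 5.29e-08), and on the log2(TPM + 1) scale -0.66 (limma adjusted p = 0.00127). It was the only one of the 8 genes called lower that kept its call in all 18 settings. In AT3 against CON it was -1.64 ± 0.11. An opposite-strand gene, Tmem63b, overlaps Mrpl14, and the strand of the counting is not given in the sources used here; Tmem63b itself was not called (0.23).

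The 7 other genes called lower had log2 fold changes from -0.34 to -0.60 on the TMM scale and positive values, 0.05 to 0.40, on the log2(TPM + 1) scale. Relative to the TPM median of all genes, 7 of the 8, Mrps5 being the exception, still lay below it. They were Mrpl4, from the wall of the peptide tunnel, Mrpl9, from the side of the large subunit, Mrpl38 and Mrpl49, both mitochondria-specific, and the small subunit genes Mrps5, Mrps11 and Mrps28. Mrpl4 had 27.3, 34.8 and 34.9 CPM in CON and 23.7, 19.6 and 20.5 CPM in CPT, a change of -0.60 ± 0.11 that became 0.05 on the TPM scale. Mrpl38 had 67.6, 71.4 and 69.7 CPM in CON and 55.4, 50.6 and 57.4 CPM in CPT, a change of -0.35 ± 0.09 that became 0.26. Mrps5 had 58.6, 49.1 and 57.3 CPM in CON and 45.4, 39.8 and 40.5 CPM in CPT. Its change was -0.39 ± 0.10 on the TMM scale and 0.40 on the TPM scale, called in opposite directions. The remaining 4 had -0.43 ± 0.09 (Mrpl9), -0.42 ± 0.10 (Mrpl49), -0.35 ± 0.10 (Mrps11) and -0.34 ± 0.11 (Mrps28). In CPM none of the 8 had a CPT library within the CON range. The call of Mrps11 was lost without CPT replicate 2 (-0.26), and that of Mrps28 without CON replicate 2 (-0.30), CON replicate 3 (-0.30) or CPT replicate 3 (-0.25).

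**Figure D3:**
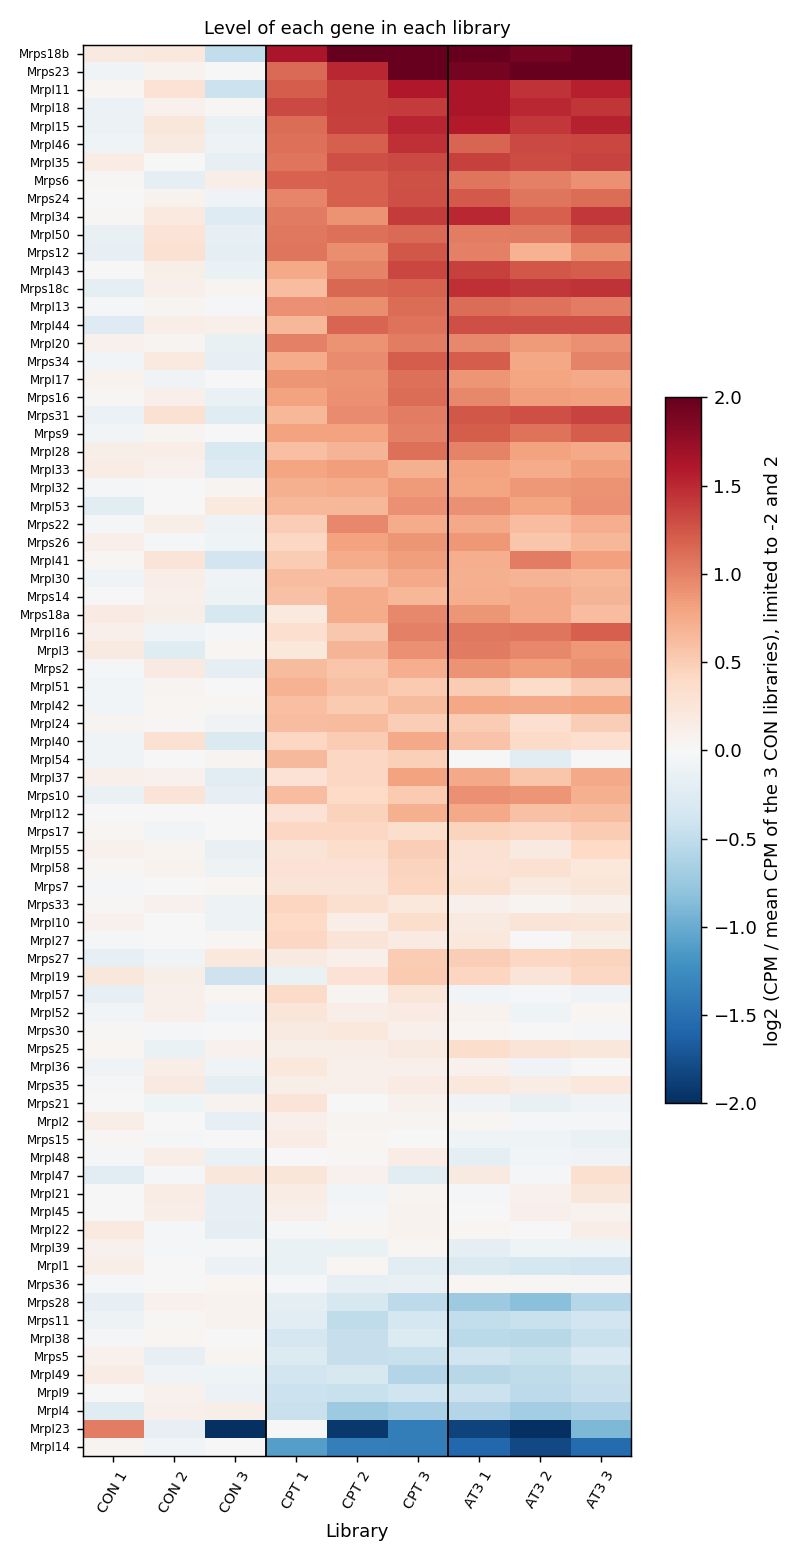
Level of each gene (rows, ordered by change in CPT against CON) in each library as log2 of CPM over the mean CPM of the 3 CON libraries, limited to -2 and 2. Most of the upper rows are red in the 6 treated libraries, Mrpl54 being near 0 or blue in AT3, and Mrpl14 is the strongest blue row apart from Mrpl23, whose CON libraries differ among themselves; of the genes called lower, only Mrpl14 is also lower on the TPM scale.

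The other 20 genes were not called in CPT against CON. They were Mrpl1, Mrpl2, Mrpl19, Mrpl21, Mrpl22, Mrpl23, Mrpl36, Mrpl39, Mrpl45, Mrpl47, Mrpl48, Mrpl52, Mrpl57, Mrps15, Mrps21, Mrps25, Mrps27, Mrps30, Mrps35 and Mrps36. On the log2(TPM + 1) scale, 18 of these were called higher, all but Mrpl23 and Mrpl47. Per length, Mrps21 was the most abundant gene of the family in each group, at a mean of 253 TPM in CON, 404 TPM in CPT and 358 TPM in AT3. Mrpl19 was the least abundant, at 0.793 TPM in CON, 1.82 TPM in CPT and 2.47 TPM in AT3. Across the 78 genes, the log2 fold change for CPT against CON had Pearson's r of -0.46 with the log2 mean CPM in CON (Spearman's rho -0.42), a description over genes that share the CON libraries on both axes. Genomic span, which is short in this family (median 7.90 kb, against 20.2 kb for tested genes with an annotation), had r of -0.19 (rho -0.20) with the change. Over all 13431 tested genes with an annotation, r was -0.14 (rho -0.15).

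The count for Mrpl23 could not be read on its own. A pseudogene, Mrpl23-ps1, took most of the counts of the pair, and the share given to Mrpl23 ran from 0.929% to 27.6% between libraries. Mrpl23 had 15.4, 6.75 and 0.507 CPM in the CON libraries, so its CON values alone covered the range of all other libraries. The sum of the pair was steadier, at 55.8, 50.3 and 54.5 CPM in CON, 48.1, 41.2 and 38.9 CPM in CPT, and 32.1, 33.1 and 37.6 CPM in AT3. The groups of this sum did not overlap, with means of 53.6 ± 2.87, 42.8 ± 4.79 and 34.2 ± 2.93 CPM (SD, n = 3 each). The pseudogene entry had a log2 fold change of -0.25 ± 0.11 for CPT against CON, which turned to 0.38 on the log2(TPM + 1) scale. All values of Mrpl23 are therefore uncertain, including its call in AT3 against CON.

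**Figure D4:**
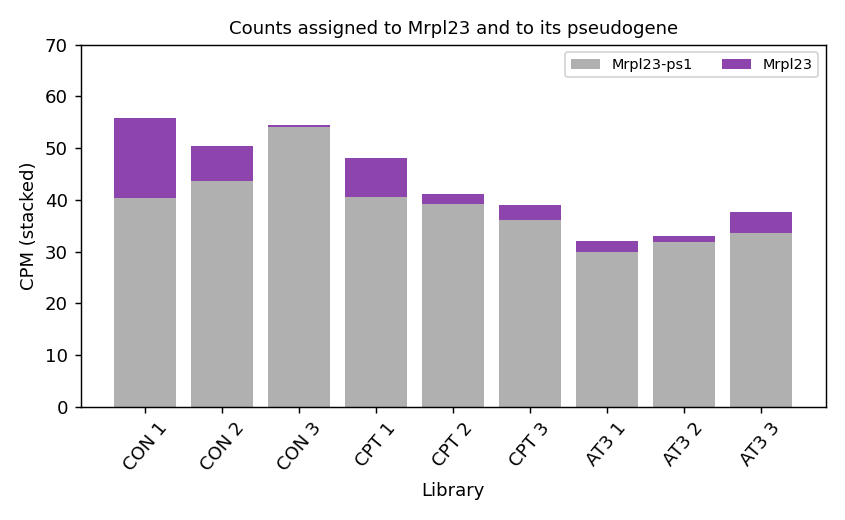
CPM assigned to Mrpl23 (purple) and to its pseudogene Mrpl23-ps1 (grey), stacked, in each of the 9 libraries. The division between the 2 differs between libraries of one group, and the stack is 50.3 to 55.8 CPM high for CON libraries, 38.9 to 48.1 CPM for CPT and 32.1 to 37.6 CPM for AT3.

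In AT3 against CPT, 1 gene of the family was called, Mrpl54, and it was lower. Over all tested genes 4.68% were called, with 2.46% higher and 2.22% lower. The median log2 fold change of the 78 was 0.01 with a median SE of 0.10. At an unadjusted p under 0.05, edgeR gave 8 genes higher and 7 lower, while 20.7% of all tested genes passed that level. DESeq2 called 0 higher and 2 lower, Mrpl54 and Mrpl14. The 3 AT3 libraries lay all above the 3 CPT libraries in 11 genes and all below in 16, where 14.5% and 12.5% of all tested genes did so.

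Mrpl54, a mitochondria-specific large subunit gene, had 37.6, 39.9 and 40.9 CPM in CON, 62.1, 52.8 and 54.7 CPM in CPT and 39.3, 34.2 and 39.5 CPM in AT3. The CPT libraries stood above both other groups, which overlapped. It rose in CPT against CON by 0.52 ± 0.10 (edgeR adjusted p = 0.000290). In AT3 against CPT the change was -0.59 ± 0.10 (edgeR adjusted p = 0.00400), and on the log2(TPM + 1) scale it was -0.49 and was not called (limma adjusted p = 0.121). The direct difference of AT3 from CON was -0.07 ± 0.10, which turned to 0.63 on the log2(TPM + 1) scale.

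**Figure D5:**
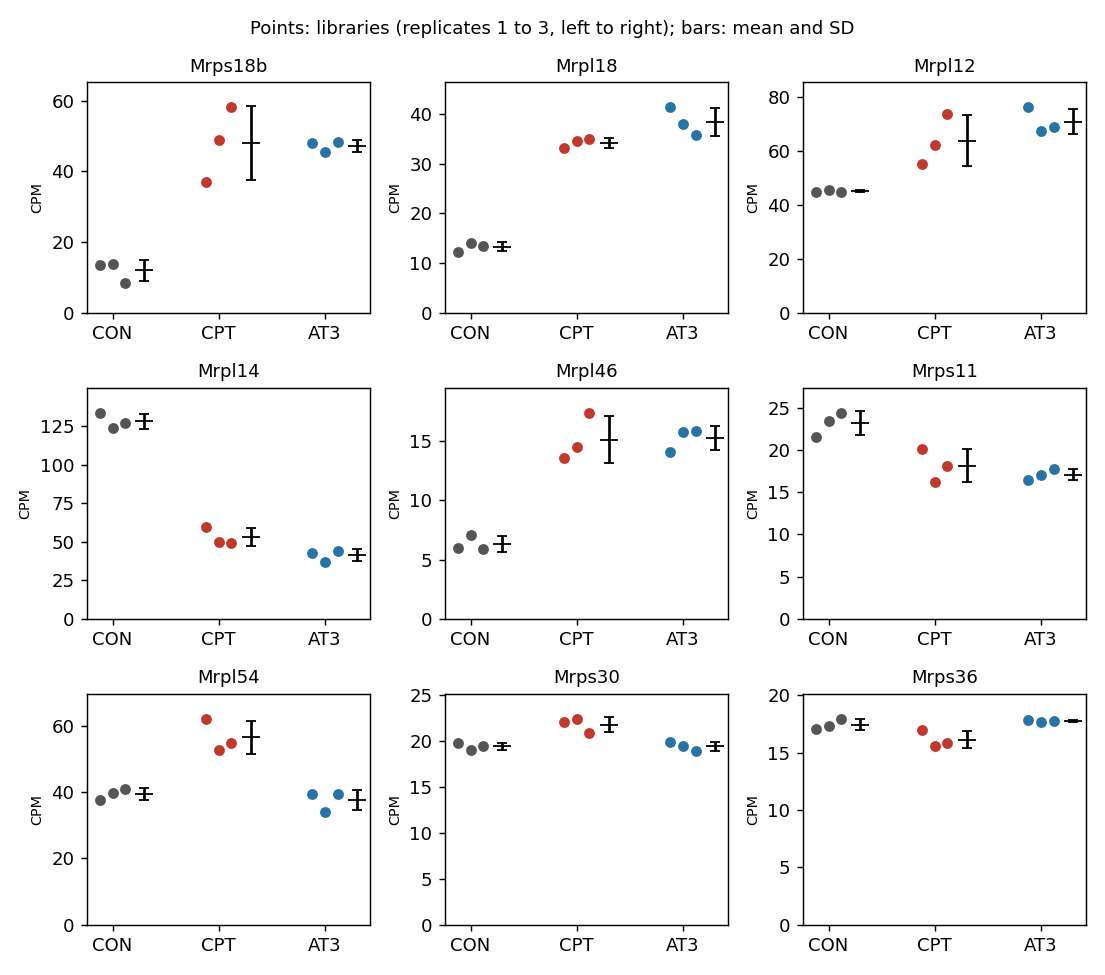
CPM of 9 genes in the 3 libraries of each group (points, replicates 1 to 3 from left to right) with mean and SD (bars), on axes that start at 0. Mrpl14 falls from CON to both treated groups, Mrpl54 is higher in CPT than in both other groups, and Mrpl46 and Mrps11 differ in direction; the fall of Mrps11 and the return of Mrpl54 to the CON level are not seen on the TPM scale, where AT3 against CON is 0.12 and 0.63.

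A few genes lay near the threshold in AT3 against CPT. Mrpl14 had -0.36 ± 0.10 (edgeR adjusted p = 0.0603), Mrps18c 0.44 ± 0.13 (0.0705) and Mrpl16 0.46 ± 0.14 (0.0729). When CPT replicate 3 was left out, 6 genes were called higher and 3 lower. The 6 were Mrpl16 (0.67), Mrps23 (0.66), Mrps18c (0.53), Mrps31 (0.48), Mrpl43 (0.40) and Mrps9 (0.36), and the 3 were Mrpl54, Mrps28 (-0.45) and Mrpl14 (-0.41). That library had 13.0 CPM of Mrps23 and 15.0 CPM of Mrpl16, against 6.68 and 8.69 CPM and 9.40 and 10.9 CPM in the other two CPT libraries. Without CON replicate 2, 1 gene was called higher, Mrps31 (0.41).

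AT3 against CON uses the same CON libraries as CPT against CON, so the lists of calls are not independent. It gave 49 genes higher and 10 lower, beside 31.5% and 32.9% of all tested genes (64.4% in all), with a median of 0.56. On the log2(TPM + 1) scale it gave 69 higher and 1 lower, beside 51.3% and 12.4% of all tested genes, with a median of 1.19. Of the genes called higher in CPT against CON, 47 were also called higher here, and all 8 called lower were again called lower, although on the log2(TPM + 1) scale 6 of these had positive values, Mrps28 had -0.0061 and Mrpl14 alone was called lower. Mrpl27, Mrpl54 and Mrps33 were called higher in CPT against CON alone; Mrps25 and Mrps27 were called higher, and Mrpl1 and Mrpl23 lower, in AT3 against CON alone. On the log2(TPM + 1) scale these differences in call were lost, except for Mrpl1. There Mrpl27 (0.86), Mrpl54 (0.63) and Mrps33 (0.48) were called higher in AT3 against CON. Mrps25 (1.06) and Mrps27 (0.75) were called higher in CPT against CON, and Mrpl23 was called in neither comparison. Mrpl1 was called higher in CPT against CON (0.40, limma adjusted p = 0.0276) and not called in AT3 against CON (0.32, limma adjusted p = 0.0648). Mrpl1, Mrpl27, Mrps25, Mrps27 and Mrps33 had differences between AT3 and CPT of -0.25, -0.16, 0.13, 0.18 and -0.24, none of which was called. The call of Mrpl1 in AT3 against CON was lost without CON replicate 1 (-0.28) and on the log2(TPM + 1) scale (0.32), while Mrps27 was also called in CPT against CON without CON replicate 3 (0.39). The log2 fold changes of Mrps18b, Mrps23 and Mrpl18 against CON were 1.97, 1.98 and 1.53 in AT3, beside 2.0, 1.62 and 1.36 in CPT.

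Many genes of the family start close to a gene on the other strand. For 33 of the 78, a protein-coding gene on the opposite strand had its start within 1000 bases of theirs, and 30 of these neighbours were tested. Of the neighbours, 10 were called higher and 5 lower in CPT against CON, with a median of 0.15. These counts include Mrpl46, called higher, and Mrps11, called lower, members of the family that are each other's neighbour. Over all tested genes, 30.0% were called higher and 30.8% lower, with a median of -0.02. How many genes outside the family have such a neighbour was not counted. On the TMM scale some pairs differed in direction or call and others rose together. Mrps12 rose by 1.07 while Sars2, the mitochondrial seryl-tRNA synthetase, had 0.01. Mrpl49 had -0.42 while Fau, which encodes a ubiquitin-like fusion with a cytosolic ribosomal protein, had 1.01. Mrpl36 had 0.14 and Ndufs6, a complex I subunit, 0.84. Mrps18b (2.0) and Ppp1r10 (1.07), a phosphatase regulator, both rose. Sars2 (0.42) was called higher on the log2(TPM + 1) scale like Mrps12, and Mrpl36 (0.71) like Ndufs6 (1.47), while Mrpl49 (0.12) was not called and Fau was (1.53).

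One such pair lies within the family. Mrpl46, a central protuberance gene on the minus strand of chr7, and Mrps11, a small subunit gene on its plus strand, start 412 bases apart and overlap in GENCODE, while their RefSeq starts are separated by 41 bases. The bases nearest to the start of Mrpl46 that lie outside annotated exons (chr7:78783090-78783118, minus strand, RefSeq GRCm38.p6) are shown because they lie between the RefSeq starts of genes with unlike changes on the TMM scale; no motif of the 3 was found there, so there are no capitals.
Mrpl46: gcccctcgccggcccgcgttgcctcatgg
Mrpl46 had 5.96, 7.10 and 5.85 CPM in CON and 13.5, 14.5 and 17.4 CPM in CPT, a rise of 1.25 ± 0.13 (edgeR adjusted p = 6.28e-07). Mrps11 had 21.6, 23.4 and 24.4 CPM in CON, and 20.1, 16.2 and 18.1 CPM in CPT. Its change was -0.35 ± 0.10 on the TMM scale and 0.14 on the log2(TPM + 1) scale. The ratio of the pair thus shifted toward Mrpl46 on both scales, since Mrpl46 had 1.64 on the TPM scale. Because the genes overlap and the strand of counting is not known, reads of one may be assigned to the other. Of the 78 genes, 36 overlap an annotated gene on the opposite strand, 13 overlap one on the same strand and 36 overlap none. Among the last, 23 were called higher and 3 lower.

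Motif matches by call were counted over the 69 genes with a RefSeq window. An ETS match was found in 19 of 46 genes called higher in CPT against CON, 0 of 5 called lower and 7 of 18 not called. For NRF1 the counts were 9, 2 and 5, and for YY1 they were 8, 2 and 2. These are counts of letters in a window, with no test.

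Related genes of mitochondrial translation were counted from lists by function, in CPT against CON. Over all tested genes, 30.0% were called higher and 30.8% lower, or 48.5% and 11.7% on the log2(TPM + 1) scale. Of 5 mitochondrial ribosomal proteins with other names, 2 were called higher and 1 lower. Chchd1 rose by 2.26 ± 0.23 and Dap3, a GTP-binding small subunit protein, by 0.88 ± 0.11. Gadd45gip1, a large subunit protein, was the third with a call, at -1.23 ± 0.11, and it was also lower in AT3 than in CPT (-0.60, edgeR adjusted p = 0.00668). On the log2(TPM + 1) scale, 0 of these 5 genes were called in AT3 against CPT. Of all tested genes, 0.212% were called higher and 0.117% lower in that comparison on that scale. Of 26 assembly factors, 6 were called higher and 9 lower, among them the helicase Ddx28 at 2.97 and the GTPases Mtg1 at 1.43 and Gtpbp10 at -1.01. Of 16 translation factors, 5 were called higher and 3 lower, with the elongation factor Tufm at 1.87, the recycling factor Mrrf at 1.14 and the elongation factor Gfm1 at 0.53. Of 20 mitochondrial aminoacyl-tRNA synthetases and amidotransferase subunits, 9 were called higher and 5 lower. Fars2, the phenylalanine enzyme, had -2.82, Mars2, the methionine enzyme, 1.89, and Iars2, the isoleucine enzyme, 0.91. The median log2 fold change was -0.04 for assembly factors, 0.05 for translation factors and 0.21 for the synthetases, against 0.53 for the family. On the log2(TPM + 1) scale these medians were 0.39, 0.49, 0.46 and 1.11, and 1, 0, 1 and 1 genes were called lower.

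Regulators and the mitochondrial genome itself were read in the same way, beside 30.0% of all tested genes called higher and 30.8% lower. On the log2(TPM + 1) scale these shares were 48.5% and 11.7%. Of 9 tested regulators of mitochondrial biogenesis, 3 were called higher and 2 lower, including the coactivators Ppargc1a at 1.70 and Pprc1 at 1.37 and the GABP subunit Gabpb2 at -0.78; on the log2(TPM + 1) scale 5 were called higher and 0 lower, with Gabpb2 at -0.19. Of 13 genes of mitochondrial DNA transcription and maintenance, 4 were called higher and 1 lower, with the topoisomerase Top1mt at 0.77, the helicase Twnk at 0.56 and the RNA polymerase Polrmt at -0.59; on the log2(TPM + 1) scale the counts were 8 and 1. Of 20 tested transcripts of the mitochondrial genome, 0 were called higher and 19 lower, or 13 lower on the log2(TPM + 1) scale. Its ribosomal RNAs, the partners of the proteins described here, had -1.53 ± 0.19 (mt-Rnr1) and -1.83 ± 0.20 (mt-Rnr2), and in AT3 against CPT they had -0.85 and -1.04 (edgeR adjusted p = 0.0175 and 0.00876). In AT3 against CPT, edgeR called 4 of the 20 transcripts lower, and on the log2(TPM + 1) scale 0 were called. Of all tested genes, 2.22% were called lower by edgeR in that comparison, and 0.117% on the log2(TPM + 1) scale. The library preparation was for mRNA, so ribosomal RNA counts do not give the rRNA content of the tissue. For comparison, 67 of 91 cytosolic ribosomal protein genes were called higher and 8 lower (median 0.69), and 51 and 12 of 81 nuclear genes of oxidative phosphorylation (median 0.42). The cytosolic list had, on the log2(TPM + 1) scale, 77 higher and 2 lower (median 1.27) and the oxidative phosphorylation list 68 and 0 (median 0.98).

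Markers of other liver cells moved with treatment as well. Over all tested genes, 30.0% were called higher and 30.8% lower in CPT against CON, or 48.5% and 11.7% on the log2(TPM + 1) scale. The summed level of 10 hepatocyte markers was 71513 to 77420 CPM in CON libraries and 65061 to 81231 CPM in CPT libraries, with 91272 to 98375 CPM in AT3. Of these 10, 5 were called higher and 2 lower in CPT against CON (7 and 0 on the log2(TPM + 1) scale), and 3 were called higher in AT3 against CPT (0 on that scale). In AT3 against CPT, 2.46% of all tested genes were called higher by edgeR, and 0.212% on the log2(TPM + 1) scale. Sinusoidal endothelial markers summed to 121 to 125 CPM in CON libraries, with 22.4 to 32.1 CPM for CPT and 27.4 to 35.6 CPM for AT3, with 8 of 10 called lower in CPT against CON. Stellate cell markers summed to 189 to 222, 45.7 to 53.4 and 28.9 to 43.2 CPM, with 9 of 10 called lower. Kupffer cell markers (46.0 to 60.2, 23.9 to 30.1 and 28.3 to 33.0 CPM) were called lower in 6 of 10 cases and higher in 1. Erythroid markers fell in 5 of 5 tested cases, with sums of 798 to 908 CPM for CON libraries, 42.7 to 50.9 CPM for CPT and 38.4 to 44.5 CPM for AT3. Neutrophil markers were called higher in 5 of 6 tested cases, at 4.36 to 5.17, 24.9 to 51.9 and 13.3 to 13.8 CPM. Cholangiocyte markers summed to 29.6 to 38.2, 26.5 to 30.9 and 32.2 to 36.3 CPM, with 4 of 7 tested called lower, and lymphocyte markers to 4.28 to 4.73, 0.692 to 1.09 and 0.755 to 1.07 CPM, with 2 of 2 called lower. Lower calls on the log2(TPM + 1) scale were 9 of 10 endothelial, 8 of 10 stellate, 4 of 10 Kupffer cell and 1 of 7 cholangiocyte markers. Among all these markers, Cftr alone was at 0 in every library. The part of cell composition in the changes of the family was not tested.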

How the data were processed

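For 9 liver libraries the authors deposited estimated counts, with gene symbols and lengths, and separately TPM values. Per the labels' protocols, RNA was purified on columns and a SMARTer kit for mRNA was used. Which aligner, counter and strand setting were used is not given in the sources used here. Builds named in the submitters' processing notes are GRCm38, mm10 and GRCm39, without their role. Between 7.96% and 9.55% of the deposited estimated counts per library were not whole, so all were rounded. The authors' TPM values served only in alternatives and for levels compared between genes.

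edgeR 4.0.16 (R 4.3.3) was fitted to all 9 libraries with TMM factors, after its filter by expression, and 1 term per group. P-values were adjusted by Benjamini-Hochberg over 13686 genes, with a threshold of 0.05. Values after ± are standard errors unless called SD. Those of edgeR, also drawn as bars, were calculated back from the log2 fold change and the F statistic of its test. TPM-scale changes are from limma 3.58.1 (trend) on log2(TPM + 1) and understate the change of low genes. Alternatives were DESeq2 1.42.0, its size factors in edgeR, no filter, pseudocounts of 1 and 0.1 on TPM, a fit without mitochondrially encoded and the 10 most abundant genes, a fit of only the 6 libraries compared, a replicate block, and each library left out. Only the main edgeR fit was tested on simulated counts, in which randomly chosen genes were changed in CPT. The simulation did not copy the fall of the mitochondrial share seen in these data, and the alternatives were not tested in this way. Replicates of a group differed beyond sampling noise (chi-square per degree of freedom 7.71 to 111). In a library, 3 counts correspond to 0.0934 to 0.169 CPM.

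The members and lists were chosen with earlier results of these data known. Named genes are the 8 largest rises and 8 falls called in CPT against CON, those called in AT3 against CPT, a fixed set by role, and from each related list the 3 genes with the smallest p; others named are examples of their class or of a near-threshold value, neighbours or changed calls.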

Additional observations from a re-analysis of the deposited data

How the results depend on the processing

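In CPT against CON, 48 of the 50 genes called higher kept the call in all 18 settings; the exceptions were Mrpl10, given above, and Mrpl27, lost without CON replicate 1 (0.27, edgeR adjusted p = 0.0567). Of the 8 called lower, only Mrpl14 did so, and with no filter Mrpl38, Mrps11 and Mrps28 lost the call (-0.27, -0.27 and -0.26). On log2(TPM + 1) and log2(TPM + 0.1) alike, 1 gene of the family was called lower in CPT against CON and 1 in AT3 against CON. On these scales, in that order, the direction turned in CPT against CON for Mrpl4 (0.053 and 0.056), Mrpl9 (0.16 and 0.18), Mrpl49 (0.12 and 0.13), Mrps5 (0.40 and 0.41), Mrpl38 (0.26 and 0.27), Mrps11 (0.14 and 0.15), Mrps28 (0.26 and 0.27) and Mrps36 (0.55 and 0.57). It also turned for Mrpl1, Mrpl39 and Mrpl23 (0.40, 0.51 and 0.096 on the first scale), so that 11 of the 12 genes with a negative value turned. In AT3 against CON it turned for Mrpl4 (0.12 and 0.13), Mrpl9 (0.20 and 0.22), Mrpl49 (0.082 and 0.090), Mrps5 (0.60 and 0.62), Mrpl38 (0.16 and 0.16), Mrps11 (0.12 and 0.13) and Mrpl54 (0.63 and 0.64). Of 17 genes with a negative value there, 14 turned; the further 7 were Mrpl1, called lower (0.32 and 0.41), and the uncalled Mrpl2, Mrpl39, Mrpl48, Mrpl57, Mrps15 and Mrps21 (0.51 to 0.75 on the first scale). The median of all genes in CPT against CON was 0.29 on the first of these scales; the cause of the turns was not tested. Calls in AT3 against CPT depended most on the setting. Over all genes they numbered 641, against 1174 with no filter, 45 and 32 on the TPM scales, and 172 to 1316 with a library left out, the highest without CPT replicate 3. For the family, 0 genes were called higher, against 3 with no filter and 0 to 6 with a library left out. The 1 gene called lower became 2 with DESeq2, 3 with no filter, 0 on both TPM scales and 1 to 3 with a library left out. The replicate numbers did not pair the libraries: same-numbered libraries of different groups had correlations of -0.0958 to 0.127, with 1 of 9 over 0.1. With the replicate number as a block, 50 genes of the family were called higher and 8 lower in CPT against CON, 0 and 1 in AT3 against CPT, and 48 and 9 in AT3 against CON. In AT3 against CON, 43 of 49 genes called higher kept the call in every setting; Mrpl10, Mrpl40, Mrpl55, Mrpl58, Mrps7 and Mrps25 lost it without 1 or more single CON or AT3 libraries.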
